A study of Mus musculus with 8 samples.

Results

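The calcitonin and adrenomedullin system was examined in the mouse uterus through 9 genes chosen by name from the 24963 genes measured: the peptide genes Calca, Calcb, Adm and Adm2, the receptor genes Calcr and Calcrl, and the receptor activity-modifying protein genes Ramp1, Ramp2 and Ramp3. All 9 were in the table, and 6 of them (Calca, Adm, Calcrl, Ramp1, Ramp2 and Ramp3) were abundant enough to be tested. CALCRL and the calcitonin receptor CALCR are G protein-coupled receptors that raise cyclic AMP. CALCRL reaches the cell surface and binds its ligands only together with a RAMP: with RAMP1 it is the receptor for calcitonin gene-related peptide (CGRP), and with RAMP2 or RAMP3 it is a receptor for adrenomedullin. In the uterus, adrenomedullin acts on blood and lymphatic vessels, CGRP is released by nerve fibers that reach the vessels and the muscle, and calcitonin is known as a progesterone-responsive product of the endometrial epithelium around implantation.

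Whole uteri were taken at gestation day (GD) 3.5 from 4 Nr2f2 f/f and 4 Nr2f2 d/d mice of a C57B6/J strain, 8 weeks old by the labels. No embryo was present, because the males they had mated with were vasectomized. Both groups carry the floxed Nr2f2 alleles. The Nr2f2 d/d mice also carry a Cre knocked into 1 Pgr allele (PgrCre/+), which deletes Nr2f2 in cells that express the progesterone receptor, and the controls lack this Cre allele. Nr2f2 mRNA was 24.1 ± 1.80 FPKM in Nr2f2 f/f and 8.93 ± 1.36 FPKM in Nr2f2 d/d (n = 4 each, SD), a difference of -1.39 on the log2 scale (log2 of FPKM + 0.5, Nr2f2 d/d minus Nr2f2 f/f, as in all log2 differences given here; limma's adjusted p = 0.00549). FPKM are fragment counts scaled to the length of the gene and the total of the library. Levels of different genes can be set side by side only as far as the gene lengths used, which are not given, hold. The depth, recovered from the steps of the FPKM of short genes, was 61500000 to 78000000 fragments in Nr2f2 f/f and 61800000 to 92650000 in Nr2f2 d/d. The uterine genes Hoxa10 and Hoxa11 averaged 121 and 91.5 FPKM in Nr2f2 f/f, and of 8 ovarian markers, Amh, Fshr, Cyp19a1 and Zp3 had means under 0.5 FPKM, while Foxl2, Inha, Star and Gdf9 averaged 13.5, 4.18, 2.31 and 0.508 FPKM in Nr2f2 f/f. Whole tissue mixes epithelium, stroma, muscle, vessels and blood cells, so that fewer cells of a type and less RNA per cell cannot be told apart.

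Calca, Calcrl and Ramp2 were lower in the Nr2f2 d/d uterus, with every Nr2f2 d/d library below every Nr2f2 f/f library, and Ramp3 was higher in 3 of the 4 Nr2f2 d/d libraries. Mean FPKM in Nr2f2 d/d were 28.1% of the Nr2f2 f/f mean for Calca, 57.7% for Calcrl, 66.2% for Ramp2 and 316% for Ramp3. Ramp1 and Adm overlapped between the groups, Calcb and Adm2 were too low to be tested, and Calcr was at the limit of detection. Of the 6 genes tested, 0 passed an adjusted p of 0.05 (limma, Benjamini-Hochberg over all 14323 genes tested), against 2.62% of all genes tested. The adjusted p was 0.0516 for Ramp2, 0.0717 for Calcrl and 0.0989 for Calca. The study's own threshold asks for a fold of at least 1.4 and a p under 0.05 before adjustment. It was met by 4 of the 6 genes, against 8.8% of all genes tested. These were Calca, Calcrl and Ramp2 as lower genes (background 4.1%) and Ramp3 as a higher gene (background 4.7%). Groups that did not overlap, with Nr2f2 d/d lower, were seen for 3 of the 6 genes and for 9.91% of all genes tested. The median log2 fold change was -0.49 over the 6 genes and -0.02 over all genes tested.

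**Figure D1:**
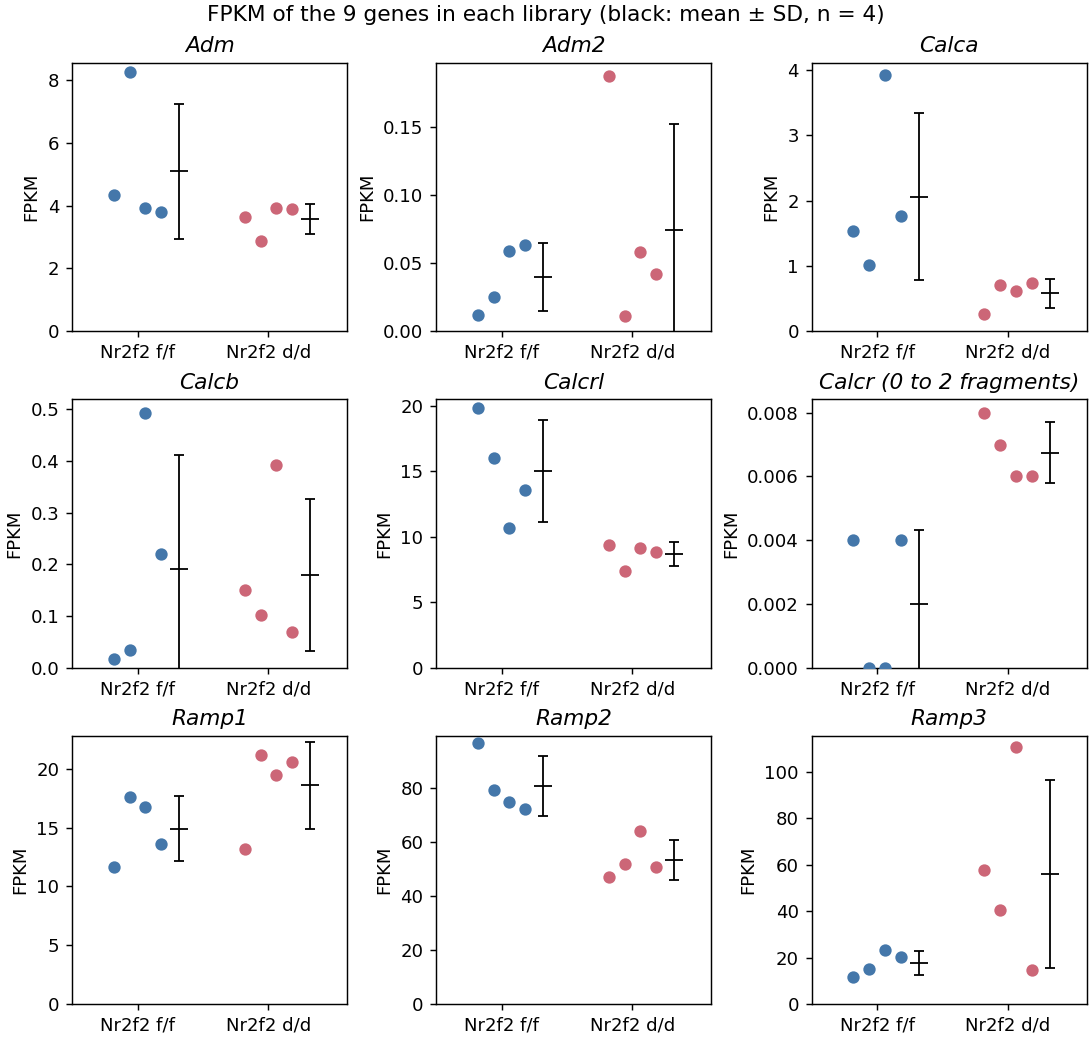
FPKM of each of the 9 genes in the 4 Nr2f2 f/f (blue) and 4 Nr2f2 d/d (red) libraries, replicates 1 to 4 from left to right, each panel with its own linear axis from 0; black bars are the mean ± SD (n = 4), drawn no lower than 0. Calca, Calcrl and Ramp2 show groups that do not overlap, Ramp3 shows 3 high Nr2f2 d/d libraries and 1 at the Nr2f2 f/f level, and the Calcr panel shows values worth at most about 2 fragments.

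Among the ligand genes, Calca alone met the study's threshold. Calca encodes calcitonin and, by alternative splicing, CGRP, and the table gives 1 value for the gene, so the 2 products cannot be told apart. It is on the minus strand of chromosome 7, from 114631478 to 114636357 (mm10, GENCODE vM21). Its FPKM were 1.54, 1.01, 3.93 and 1.77 in the control libraries (here and below in the order of replicates 1 to 4) and 0.257, 0.704, 0.613 and 0.742 in the Nr2f2 d/d libraries. The highest Nr2f2 d/d library stayed under the lowest Nr2f2 f/f library, and Nr2f2 f/f replicate 3 was the highest of all. The means were 2.06 ± 1.28 and 0.579 ± 0.221 FPKM (n = 4 each, SD), which differed by -1.15 on the log2 scale (SE 0.324, 95% interval -1.90 to -0.41, limma p = 0.00704, adjusted p = 0.0989; exact permutation p = 0.0286). That permutation p is the smallest that 4 against 4 libraries can give. At this depth the values stand for about 26.8 to 516 fragments per library, and the 0.5 added before the log2 understates the difference of a gene near that level. When any 1 library was left out, the difference was -1.37 to -0.85, and Calca met the study's threshold in all 16 alternative settings tried.

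The 250 bases before the start of Calca are shown because the Nr2f2 d/d mean of Calca was the smallest share of its control mean among the genes tested and the window held the only match among the motifs searched. They lie at chr7:114636358-114636607 on the minus strand (RefSeq, GRCm38.p6), are read 5′ to 3′ toward the start of the gene, and have the matching letters in capitals.
Calca: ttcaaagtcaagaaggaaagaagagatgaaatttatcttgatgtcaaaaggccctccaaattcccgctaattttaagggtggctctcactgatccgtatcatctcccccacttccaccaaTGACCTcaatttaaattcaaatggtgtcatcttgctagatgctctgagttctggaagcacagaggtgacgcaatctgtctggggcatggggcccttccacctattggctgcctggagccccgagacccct
The capitals TGACCT are AGGTCA on the other strand, the core letters bound by NR2F2 and many other nuclear receptors, and begin 130 bases before the start. AGGTCA is found on either strand in 14.0% of 32851 RefSeq windows of this length. The other letters searched on both strands were TGTTCT, the core bound by the progesterone receptor (16.1% of windows), ACGTG, the core of hypoxia response elements (16.6%), and the estrogen response palindrome, GGTCA and TGACC with 3 bases between them, whose arms overlap with AGGTCA (0.0639%). Windows were at hand for Calca, Adm, Adm2, Calcr, Calcrl, Ramp1 and Ramp3, and none of the other 6 genes held any of the 4. A match is a description of the letters, and its absence says only that the letters are not in this window.

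Calcb encodes a further form of CGRP and is close to Calca, on the plus strand of chromosome 7, from 114718643 to 114723365. Its FPKM were 0.016, 0.034, 0.493 and 0.220 in Nr2f2 f/f and 0.151, 0.102, 0.393 and 0.069 in Nr2f2 d/d, in both groups highest in replicate 3. The groups overlapped, with means of 0.191 ± 0.222 and 0.179 ± 0.147 FPKM (SD, n = 4 each; exact permutation p = 1). With the GENCODE length of the gene, these values stand for about 1.28 to 48.6 fragments, and no fold change was fitted. The lowest estimates, 1.28 and 2.65 in Nr2f2 f/f replicates 1 and 2, are not whole fragments. The length behind the FPKM of Calcb may therefore differ, and the range is rough. Calca and Calcb share a run of 61 identical coding bases, their longest, which is shown so that its length can be set against that of a read. The run includes the start of the mature CGRP peptide. In Calca its bases lie at chr7:114634468-114634469 and chr7:114632541-114632599 on the minus strand, and in Calcb at chr7:114721711-114721712 and chr7:114721975-114722033 on the plus strand (GRCm38, GENCODE vM21).
Calca and Calcb: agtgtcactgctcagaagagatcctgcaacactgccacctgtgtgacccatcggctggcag
The run is shorter than a read of 76 bases, and 0 of the 1634 stretches of 76 transcript bases in Calca recurred in Calcb.

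Adm encodes adrenomedullin, a peptide that widens vessels and is known to be induced by low oxygen. It is on the plus strand of chromosome 7, from 110627661 to 110629820. Its FPKM were 4.36, 8.28, 3.92 and 3.81 in Nr2f2 f/f and 3.64, 2.89, 3.92 and 3.90 in Nr2f2 d/d. The groups overlapped, and Nr2f2 f/f replicate 2 stood apart above all others. The means were 5.09 ± 2.14 and 3.59 ± 0.485 FPKM (n = 4 each, SD), which differed by -0.39 on the log2 scale (SE 0.229, 95% interval -0.92 to 0.13, limma's adjusted p = 0.356; exact permutation p = 0.143). Without Nr2f2 f/f replicate 2 the log2 fold change was -0.16. Adm2, which encodes intermedin, a related ligand of CALCRL, was at 0.012, 0.025, 0.059 and 0.063 FPKM in Nr2f2 f/f and 0.187, 0.011, 0.058 and 0.042 FPKM in Nr2f2 d/d. The Adm2 values stand for at most about 15.0 fragments and overlapped between the groups (exact permutation p = 0.629).

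Of the receptors, only Calcrl was well detected. Calcr, the calcitonin receptor gene (minus strand of chromosome 6, from 3685680 to 3764714), was at 0.004, 0, 0 and 0.004 FPKM in Nr2f2 f/f and 0.008, 0.007, 0.006 and 0.006 FPKM in Nr2f2 d/d. All 8 values were under the level of 3 fragments, which is 0.00828 to 0.0125 FPKM for this gene, so no fold change is given. Counting error alone is covered by this limit.

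Calcrl, the receptor for CGRP and adrenomedullin, is on the minus strand of chromosome 2, from 84330626 to 84425411. Its FPKM were 19.9, 16.0, 10.6 and 13.6 in Nr2f2 f/f and 9.36, 7.35, 9.13 and 8.80 in Nr2f2 d/d. The groups did not overlap, and the Nr2f2 d/d libraries were closer together than the Nr2f2 f/f libraries. The means were 15.0 ± 3.91 and 8.66 ± 0.907 FPKM (n = 4 each, SD), which differed by -0.73 on the log2 scale (SE 0.178, 95% interval -1.14 to -0.32, limma p = 0.00320, adjusted p = 0.0717; exact permutation p = 0.0286). When any 1 library was left out the difference was -0.88 to -0.59, and the adjusted p was 0.0443 to 0.186, under 0.05 in 1 of the 8 fits, that without Nr2f2 f/f replicate 3. The 250 bases before the Calcrl start, at chr2:84425267-84425516 on the minus strand (RefSeq, GRCm38.p6, whose start of the gene lies inside the GENCODE gene), are shown because this gene carries the receptor side of the result.
Calcrl: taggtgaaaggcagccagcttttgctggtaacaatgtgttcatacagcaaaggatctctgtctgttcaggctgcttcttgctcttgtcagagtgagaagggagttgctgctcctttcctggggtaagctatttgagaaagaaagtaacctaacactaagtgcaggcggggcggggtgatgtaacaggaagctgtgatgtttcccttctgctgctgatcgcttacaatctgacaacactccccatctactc
This window had 48.4% G and C and held none of the 4 motifs.

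Ramp2, the partner that makes CALCRL an adrenomedullin receptor in vessels, had the highest mean level of the 9 genes in Nr2f2 f/f. It is on the plus strand of chromosome 11, from 101246028 to 101259546. Its FPKM were 96.7, 79.1, 74.6 and 72.1 in Nr2f2 f/f and 46.9, 51.9, 64.1 and 50.7 in Nr2f2 d/d. All 4 Nr2f2 d/d libraries were below all 4 Nr2f2 f/f libraries. The means were 80.6 ± 11.1 and 53.4 ± 7.45 FPKM (n = 4 each, SD), which differed by -0.59 on the log2 scale (SE 0.126, 95% interval -0.88 to -0.30, limma p = 0.00144, adjusted p = 0.0516; exact permutation p = 0.0286). Over the 16 alternative settings the adjusted p ran from 0.0360 to 0.171, and it was under 0.05 in 2 of them, without Nr2f2 d/d replicate 3 (0.0402) and with quantile normalization (0.0360). Ramp2 shares 33.4% of its exon bases with Vps25, a gene on the same strand, and Vps25 itself was at 40.7 ± 4.78 FPKM in Nr2f2 f/f and 48.3 ± 1.79 FPKM in Nr2f2 d/d (SD, n = 4 each), the other direction.

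Ramp3, which also makes CALCRL an adrenomedullin receptor and guides its recycling after uptake, was the only one of the 6 genes tested that met the study's threshold as a higher gene. It is on the plus strand of chromosome 11, from 6658521 to 6677475, and 7.32% of its exon bases overlap the pseudogene Gm11978 on the other strand. Its FPKM were 11.8, 15.2, 23.3 and 20.4 in Nr2f2 f/f and 57.6, 40.5, 111 and 14.8 in Nr2f2 d/d. Nr2f2 d/d replicates 1, 2 and 3 were above all Nr2f2 f/f libraries, and replicate 4 was within their range. The means were 17.7 ± 5.16 and 55.9 ± 40.6 FPKM (n = 4 each, SD), which differed by 1.35 on the log2 scale (SE 0.545, 95% interval 0.10 to 2.60, limma p = 0.0377, adjusted p = 0.210; exact permutation p = 0.114). The SD within Nr2f2 d/d was larger than the difference between the means. Without Nr2f2 d/d replicate 4 the log2 fold change was 1.87 (limma's adjusted p = 0.0518), and without replicate 3 it was 0.91 (limma's adjusted p = 0.319). Of the 8 fits that left out 1 library, Ramp3 met the study's threshold in 2, those without Nr2f2 f/f replicate 3 or without Nr2f2 d/d replicate 4. When a control library was left out, the difference was 1.18 (replicate 1), 1.29 (replicate 2) or 1.43 (replicate 4), and when a Nr2f2 d/d library was left out, 1.23 (replicate 1) or 1.39 (replicate 2), all short of the threshold. The 250 bases before the Ramp3 start, at chr11:6658283-6658532 on the plus strand (RefSeq, GRCm38.p6, whose start also lies inside the GENCODE gene), are shown because Ramp3 went the other way from Calcrl and Ramp2.
Ramp3: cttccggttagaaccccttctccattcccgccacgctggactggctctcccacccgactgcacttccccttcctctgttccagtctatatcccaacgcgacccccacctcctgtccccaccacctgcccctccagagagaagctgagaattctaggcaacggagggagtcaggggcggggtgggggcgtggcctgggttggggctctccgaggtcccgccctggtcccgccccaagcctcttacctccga
This window had 65.2% G and C and, like that of Calcrl, held none of the 4 motifs.

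Ramp1, the partner that makes CALCRL the CGRP receptor, is on the plus strand of chromosome 1, from 91179822 to 91225196. Its FPKM were 11.7, 17.6, 16.8 and 13.6 in Nr2f2 f/f and 13.1, 21.2, 19.5 and 20.5 in Nr2f2 d/d. Nr2f2 d/d replicates 2, 3 and 4 were above all Nr2f2 f/f libraries and replicate 1 was within their range. The means were 14.9 ± 2.74 and 18.6 ± 3.69 FPKM (n = 4 each, SD), which differed by 0.30 on the log2 scale (SE 0.181, 95% interval -0.12 to 0.72, limma's adjusted p = 0.372; exact permutation p = 0.2). Among the 8 fits that left out a library, the difference was lowest (0.19) when control replicate 1 was dropped and highest (0.46) when Nr2f2 d/d replicate 1 was dropped, and Ramp1 met the study's threshold in 0 of these 8 fits.

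**Figure D2:**
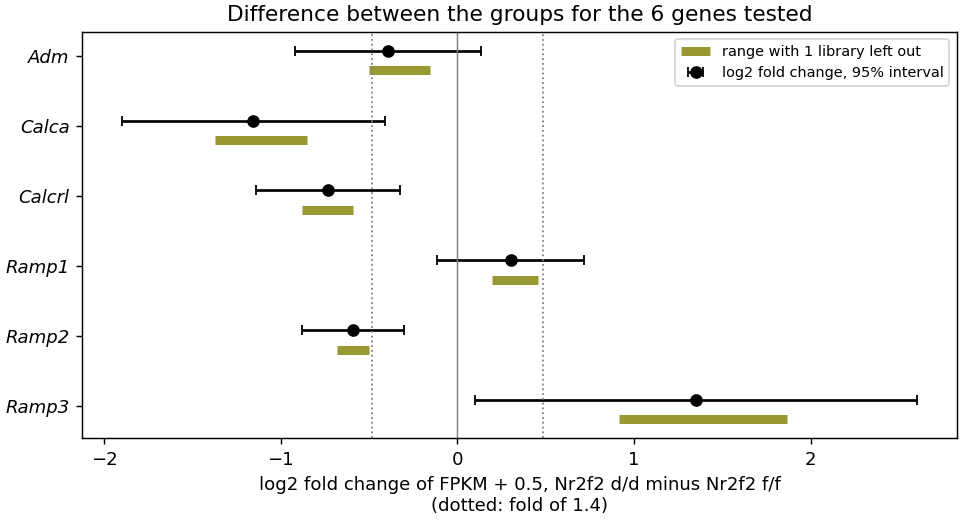
Log2 fold change of FPKM + 0.5, Nr2f2 d/d minus Nr2f2 f/f, of the 6 genes tested. Black points are limma estimates with 95% intervals, olive bars span the values with 1 library left out, and dotted lines mark a fold of 1.4. Calca, Calcrl and Ramp2 lie below 0 with their intervals, Ramp3 lies above 0 with the widest interval, and the intervals of Adm and Ramp1 include 0.

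The levels of the 9 genes, set side by side per length, gave an order that differed between libraries. In Nr2f2 f/f, Ramp2 (80.6 FPKM) was the highest in all 4 libraries. Ramp3, Calcrl and Ramp1 followed with overlapping means of 17.7, 15.0 and 14.9 FPKM, and their order changed from library to library. Adm was above Calca in 3 of the 4 Nr2f2 f/f libraries and level with it in replicate 3, and both were above Calcb, Adm2 and Calcr. In Nr2f2 d/d, Calcrl was below all 3 Ramp genes in every library, as it was in Nr2f2 f/f replicates 3 and 4. In Nr2f2 f/f replicate 1 it was above Ramp1 and Ramp3, and in replicate 2 above Ramp3. Ramp3 was above Ramp2 in Nr2f2 d/d replicates 1 and 3 and in 0 of the 4 Nr2f2 f/f libraries.

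The make-up of the Ramp mRNA was described by the share of each gene in the summed FPKM of the 3, with no test. Ramp3 made up 9.81%, 13.6%, 20.3% and 19.2% of the sum in Nr2f2 f/f and 49.0%, 35.7%, 57.0% and 17.2% in Nr2f2 d/d. The share of Ramp2 was 65.1% to 80.5% in Nr2f2 f/f and 33.0% to 59.0% in Nr2f2 d/d, which did not overlap. The share of Ramp1 averaged 13.2% and 15.9%, with overlapping ranges. The sum itself was 106 to 120 FPKM in Nr2f2 f/f and 86.0 to 194 FPKM in Nr2f2 d/d. Nr2f2 d/d replicate 4 had the Nr2f2 f/f pattern in the Ramp3 share, and its Ramp2 share was the highest of its group.

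Relative to the receptor, Ramp2 kept to a similar range. There were 4.87 to 7.02 FPKM of Ramp2 per FPKM of Calcrl in Nr2f2 f/f and 5.01 to 7.06 in Nr2f2 d/d, with means of 5.54 ± 1.01 and 6.21 ± 1.00 (SD, n = 4 each). Ramp1 per Calcrl averaged 1.07 (0.589 to 1.58) in Nr2f2 f/f and 2.19 (1.403 to 2.88) in Nr2f2 d/d, and Ramp3 per Calcrl averaged 1.31 (0.594 to 2.19) and 6.37 (1.68 to 12.1). These ratios restate the levels above and are not separate evidence. The ratios and shares also rest on gene lengths that are not given, and on how the bases Ramp2 shares with Vps25 were counted.

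**Figure D3:**
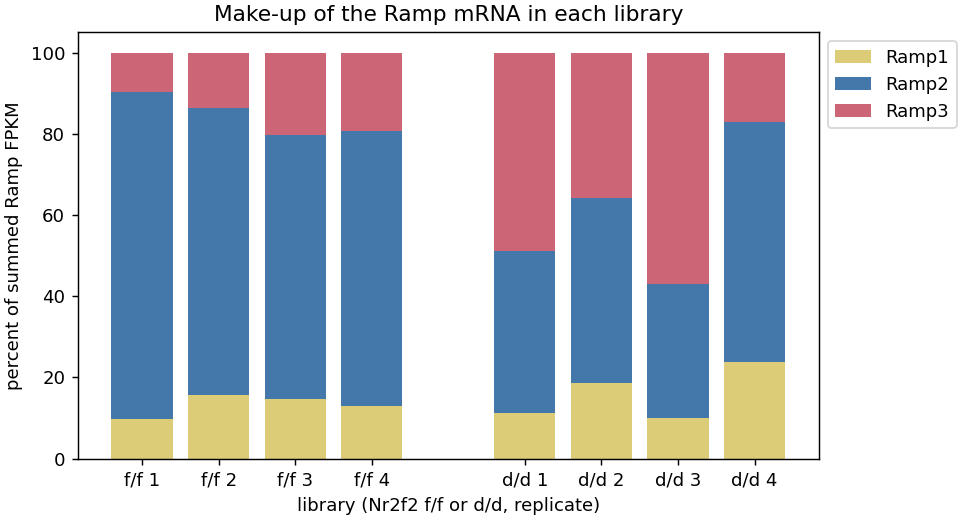
Share of Ramp1, Ramp2 and Ramp3 in their summed FPKM, in percent, for each of the 8 libraries (1 bar per library, replicates 1 to 4 of Nr2f2 f/f at the left and of Nr2f2 d/d at the right). Ramp2 makes up 65.1% to 80.5% of every Nr2f2 f/f bar, and Ramp3 makes up over 35% of 3 of the 4 Nr2f2 d/d bars.

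Calcrl and Ramp2 are known as genes of endothelial cells, and the markers of endothelium moved with them. Of 12 endothelial markers, 11 met the study's threshold as lower genes in Nr2f2 d/d and 7 (Pecam1, Cdh5, Kdr, Emcn, Erg, Egfl7 and Esam) passed limma's adjusted p of 0.05. The exception was Cldn5, a tight junction gene, at a log2 fold change of 0.10. The median log2 fold change of the 12 was -0.73, and their summed FPKM was 370 to 501 in Nr2f2 f/f and 235 to 292 in Nr2f2 d/d. The count past the adjusted p was 0 without Nr2f2 d/d replicate 1 or 2, 1 without Nr2f2 f/f replicate 1 or 4, 5 without Nr2f2 f/f replicate 2 or Nr2f2 d/d replicate 4, and 7 in the other fits, while 10 or 11 markers met the study's threshold in all 8. Per 100 FPKM of summed endothelial markers, Calcrl was at 3.42 ± 0.450 FPKM in Nr2f2 f/f and 3.39 ± 0.409 FPKM in Nr2f2 d/d (SD, n = 4 each), and the groups overlapped. Ramp2 on the same scale was at 18.6 ± 1.32 FPKM and 20.8 ± 1.36 FPKM (SD, n = 4 each), with 17.4 to 20.2 in Nr2f2 f/f and 19.3 to 22.0 in Nr2f2 d/d. Ramp3 on this scale was at 2.35 to 6.31 FPKM in Nr2f2 f/f and 5.62 to 37.9 FPKM in Nr2f2 d/d. The part of the endothelial markers in the results for Calcrl and Ramp2 was not tested.

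Markers of lymphatic endothelium, where Calcrl, Ramp2 and Ramp3 are also known to act, did not show the lower levels of the pan-endothelial list. Of 7 markers, 5 were tested and 0 met the study's threshold as lower genes, with a median log2 fold change of 0.34. Reln met the study's threshold as a higher gene, Prox1 was under the 0.5 FPKM filter and Ccl21a was listed at 0 in every library. The summed FPKM was 11.0 to 18.4 in Nr2f2 f/f and 14.2 to 21.5 in Nr2f2 d/d.

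**Figure D4:**
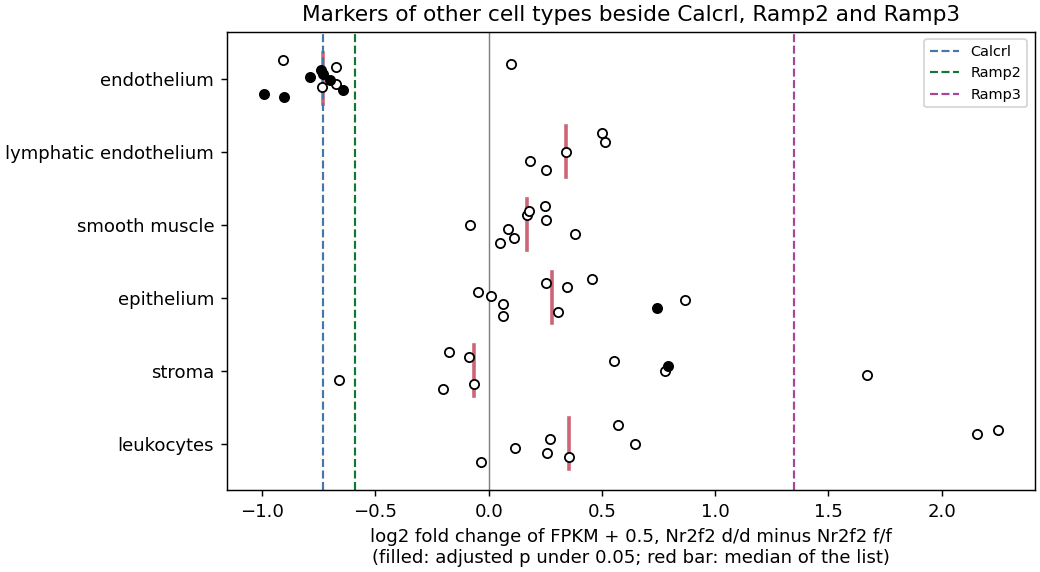
Log2 fold change of FPKM + 0.5, Nr2f2 d/d minus Nr2f2 f/f, for each tested marker of 6 cell types (1 point per gene, filled where the limma adjusted p is under 0.05, red bar at the median of the list), with dashed lines at Calcrl, Ramp2 and Ramp3. The dashed line of Calcrl (-0.73) falls among 11 of the 12 endothelial markers (-0.99 to -0.64), that of Ramp2 (-0.59) lies just above these 11, and that of Ramp3 (1.35) lies beyond every marker of endothelium, lymphatic endothelium, smooth muscle and epithelium shown.

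Other marker lists were set beside Calca and Ramp3. Of 10 epithelial markers, 2 met the study's threshold as higher genes and 0 as lower genes, with sums of 763 to 899 FPKM in Nr2f2 f/f and 925 to 1101 FPKM in Nr2f2 d/d. The 5 gland markers summed to 138 to 3290 FPKM in Nr2f2 f/f and 27.4 to 82.6 FPKM in Nr2f2 d/d. Every Nr2f2 d/d sum was below every control sum, as for Calca between the groups. The log2 fold changes of the 5 had a median of -3.52. Within the controls, Spink1, Prss28 and Prss29 were highest in replicate 2 (1332, 510 and 1444 FPKM), where Calca was lowest (1.01 FPKM). Cxcl15 and Foxa2 were lowest in replicate 2 and highest in replicate 3 (17.6 and 7.74 FPKM), as was Calca (3.93 FPKM). Spink1, Prss28 and Prss29 made up most of the control sums, and Cxcl15 and Foxa2 most of the sums in Nr2f2 d/d replicates 1, 2 and 3. Only Spink1 passed the adjusted p among the 5, and its groups did not overlap, while those of Prss28 and Prss29, related genes that may share fragments, did (limma's adjusted p = 0.356 and 0.335). Cxcl15 differed by 1.02 on the log2 scale in the opposite direction, with 3 of 4 Nr2f2 d/d libraries above every control (limma's adjusted p = 0.470), and Foxa2, the defining transcription factor of glands, had a log2 fold change of -0.02. The part of the gland markers in the result for Calca was not tested. Of 8 neuron markers, 6 were under 0.5 FPKM and 0 of the other 2 met the study's threshold, and Scn10a, a gene of sensory neurons that release CGRP, was at or near 0. The neuron sums were 3.262 to 5.292 FPKM in Nr2f2 f/f and 2.627 to 3.245 FPKM in Nr2f2 d/d, lower without overlap. Stmn2, the most abundant of the 8, overlapped between the groups (limma's adjusted p = 0.644). The part of the neuron markers in the result for Calca was not tested. Of 9 stromal markers, 4 (Col1a1, Col3a1, Dcn and Lum) met the study's threshold as higher genes and 1 (Vim) as a lower gene. The sums were 1589 to 1822 FPKM in Nr2f2 f/f and 2139 to 3804 FPKM in Nr2f2 d/d, which did not overlap. The median log2 fold change of the 9 was -0.07, with 4 markers above 0 and 5 below 0 (Pdgfra, Pdgfrb, Vim, Hoxa10 and Hoxa11). Col1a1, a collagen gene of this list, was at 533, 444, 1141 and 314 FPKM in the 4 Nr2f2 d/d libraries, in the same order of libraries as Ramp3 and highest in replicate 3. Col3a1 and Pdgfrb (log2 fold change -0.07) had this order too. The rest of the list did not, and Vim was highest in Nr2f2 d/d replicate 4 (301 FPKM). The part of the stromal markers in the result for Ramp3 was not tested. Of 9 leukocyte markers, 3 met the threshold as higher genes (sums of 40.2 to 70.6 FPKM and 70.5 to 106 FPKM), and of 9 smooth muscle markers, 0 met it in either direction. Among the tested markers of tissues that could adhere to a uterus, it was met, as higher genes, by 2 of 5 for mesothelium, 1 of 3 for skeletal muscle, 0 of 4 for ovary, 0 of 3 for oviduct and 0 of 2 for adipocytes.

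The other genes of the pathway were described by lists drawn up for this purpose. Of 11 tested genes of peptide maturation and clearance, 0 had an adjusted p under 0.05, and 3 met the study's threshold as lower genes, with a median log2 fold change of -0.09. Pam, the enzyme that amidates CGRP, calcitonin and adrenomedullin, was at 31.5 ± 2.79 FPKM in Nr2f2 f/f and 44.0 ± 8.90 FPKM in Nr2f2 d/d (SD, n = 4 each), with every Nr2f2 d/d library above every Nr2f2 f/f library (log2 fold change 0.46, limma's adjusted p = 0.114). Ackr3, a receptor that takes up adrenomedullin without G protein signaling, differed by -0.63 on the log2 scale (limma's adjusted p = 0.128), and Ece1, a peptidase of endothelial and other cells, one of -0.60 (limma's adjusted p = 0.146). Without Nr2f2 f/f replicate 1, only 1 gene of this list met the study's threshold as a lower gene. With 1 library left out, the median of the list ran from -0.16 (without Nr2f2 d/d replicate 2) to 0.01 (without Nr2f2 f/f replicate 2).

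Downstream of the receptors, 21 genes were tested, and 2 of them fell with an adjusted p under 0.05. Nos3, the endothelial nitric oxide synthase, dropped from 9.62 ± 1.32 to 5.85 ± 0.778 FPKM (n = 4 each, SD), a difference of -0.67 on the log2 scale (limma's adjusted p = 0.0335). Arrb1, a beta-arrestin that ends receptor signaling, dropped from 22.2 ± 2.68 to 14.0 ± 2.02 FPKM (n = 4 each, SD), a difference of -0.65 on the log2 scale (limma's adjusted p = 0.0398). Adcy4, an adenylyl cyclase, differed by -0.68 on the log2 scale (limma's adjusted p = 0.0527). At the study's threshold, 3 genes of the list were lower and 1 was higher. The higher gene was Adcy5, a further adenylyl cyclase, at 3.75 FPKM in Nr2f2 f/f and 6.28 FPKM in Nr2f2 d/d, with every Nr2f2 d/d library above every control (0.67 on the log2 scale, limma's adjusted p = 0.0667). Of the 8 fits that left out 1 library, 6 had 0 genes of the list past the adjusted p, that without Nr2f2 f/f replicate 2 had 1, and that without Nr2f2 d/d replicate 3 had 2. The 12 endothelial markers had a median of -0.73, and their part in the results for Nos3, Arrb1 and Adcy4 was not tested. The median log2 fold change of the list was -0.08, and the G protein gene Gnas was at 63.2 FPKM in Nr2f2 f/f and 66.3 FPKM in Nr2f2 d/d.

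Of 18 other receptors that pair with RAMPs and related ligands, 11 were under 0.5 FPKM, among them Iapp, which encodes amylin. Among these low genes, every Nr2f2 d/d library was above every control for Pth2r and Adcyap1, while the rest overlapped. Pth2r averaged 0.126 FPKM in Nr2f2 f/f and 0.673 FPKM in Nr2f2 d/d, and Adcyap1 0.104 and 0.298 FPKM. Of the 7 tested, Vipr1, a receptor for vasoactive intestinal peptide, met the study's threshold, at 0.765 ± 0.0672 FPKM in Nr2f2 f/f and 0.373 ± 0.113 FPKM in Nr2f2 d/d (SD, n = 4 each; log2 fold change -0.54, limma's adjusted p = 0.0626). Vipr2, the second such receptor, and Gper1 followed by p, with log2 fold changes of -1.06 and 0.84 (adjusted p = 0.276 and 0.372 from limma).

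Lists of hormone- and oxygen-responsive genes were set beside Calca and Adm. Of 8 progesterone-responsive epithelial genes, 0 had an adjusted p under 0.05 and 1 met the study's threshold, as a lower gene, with a median log2 fold change of -0.40. It was Fst, which encodes the activin-binding follistatin, at 10.6 ± 2.83 FPKM in Nr2f2 f/f and 5.40 ± 1.65 FPKM in Nr2f2 d/d (SD, n = 4 each; log2 fold change -0.92, limma's adjusted p = 0.0783). Cyp26a1, which degrades retinoic acid, ranged from 10.1 to 247 FPKM within Nr2f2 f/f, and Areg, which encodes amphiregulin, from 0.04 to 19.2 FPKM, and the groups overlapped for both. Pgr was at 19.3 ± 6.30 and 26.4 ± 5.67 FPKM and Esr1 at 33.5 ± 2.91 and 41.8 ± 5.42 FPKM in Nr2f2 f/f and Nr2f2 d/d (SD, n = 4 each; adjusted p = 0.318 and 0.151 from limma). These are mRNA levels of the whole uterus, and 1 Pgr allele of the Nr2f2 d/d mice carries the Cre. By immunostaining, the paper reports less PGR protein in the Nr2f2 d/d stroma. Of 12 hypoxia-responsive genes, 4 met the study's threshold as higher genes and 1 as a lower gene, with a median log2 fold change of 0.34, while Adm had -0.39. Car9, a carbonic anhydrase, and Egln3, an oxygen sensor, had log2 fold changes of 0.69 and 1.09, and Ndrg1 one of -1.48 (adjusted p = 0.0861, 0.187 and 0.146 from limma). The count of 4 was 1 without Nr2f2 f/f replicate 1 or Nr2f2 d/d replicate 1, 2 without Nr2f2 f/f replicate 2, 3 or 4, and 3 in the other fits.

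**Figure D5:**
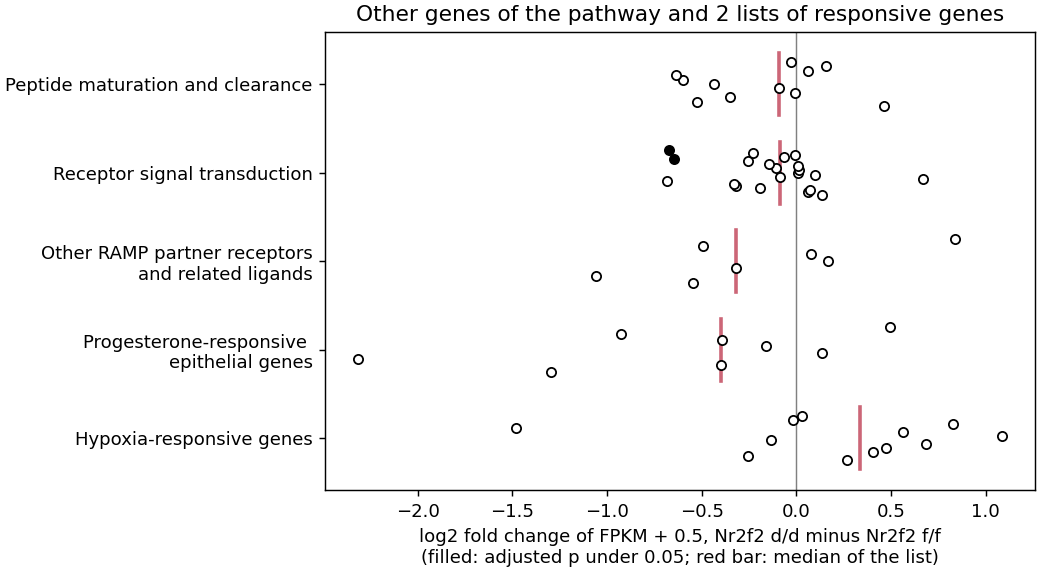
Log2 fold change of FPKM + 0.5, Nr2f2 d/d minus Nr2f2 f/f, for each tested gene of 5 lists (1 point per gene, filled where the limma adjusted p is under 0.05, red bar at the median of the list). The 2 filled points are Nos3 and Arrb1 in the receptor signal transduction list, and the medians run from -0.40 for progesterone-responsive epithelial genes to 0.34 for hypoxia-responsive genes.

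The genes whose profile was most like that of each member were named by Pearson's r of log2(FPKM + 0.5) over the 8 libraries, among the 13212 genes whose mean reached 1 FPKM. These are descriptions, since the libraries share the difference between the groups and their depth. Calcrl was most like Lpar4 (0.99), a receptor for lysophosphatidic acid, and Klhl4 (0.99), and with the group means taken off most like Lpar4 (0.98), Zfp46 (0.98) and Klhl4 (0.97). Ramp2 was most like Gda (0.99), Tal1 (0.98), a transcription factor of endothelial and blood cells, and Flvcr1 (0.98). With the group means taken off, the nearest to Ramp2 were Wnt7a (0.98), Gda (0.97) and Avpi1 (0.96). Between Calcrl and Ramp2 themselves r was 0.88, and 0.57 with the group means taken off.

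Ramp3 was most like Foxl2 (0.99), a transcription factor of the ovary that the uterine stroma also expresses, Fbxo34 (0.99) and Tmed10 (0.98), and with the group means taken off most like Plod1 (0.99), Adh7 (0.99) and Igsf10 (0.99). Calca was most like Tmem132e (0.95), Sufu (0.94) and Slc25a26 (0.93), and with the group means taken off most like Tmem132e (0.95), Osr1 (0.94) and Immp2l (0.92). Adm was most like Ighmbp2 (0.99), Cir1 (0.99) and Sidt2 (0.98), and with the group means taken off most like Ighmbp2 (0.99), Sqstm1 (0.98) and Sik1 (0.98), values in which its 1 high library weighs heavily. Ramp1 was most like Tmem205 (0.97), Tns1 (0.96) and Chchd7 (0.93), and with the group means taken off most like Tmem205 (0.96), Tns1 (0.96) and Nme5 (0.96). Within the groups, Calca and Calcrl ran in opposite directions (r of -0.74 with the group means taken off), with Calca highest and Calcrl lowest in Nr2f2 f/f replicate 3.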

How the data were processed

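Total RNA of whole uteri was sequenced by the authors from 4 Nr2f2 f/f and 4 Nr2f2 d/d mice (TruSeq RNA v2 kit, 76-bp paired-end reads). Per the labels and the study's methods, adaptors were removed with cutadapt 1.12, reads aligned to mm10 with STAR 2.5.2b and fragments counted with featureCounts 1.5.0-p1. The submitters' processing notes also name Cufflinks 2.0.2. The values the authors deposited are FPKM. The annotation, the strand setting and the FPKM formula are not given in the sources used here. The study's count test was not used, because FPKM are not counts.

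Groups and replicate numbers came from the sample titles. Nothing in the labels gives a batch, and no column of values was left unmatched. Genes whose mean reached 0.5 FPKM were tested on log2(FPKM + 0.5) with limma 3.58.1 in R 4.3.3 (trend, two-sided, Benjamini-Hochberg), and single genes with two-sided exact permutation tests over 70 arrangements. The fit was tested on simulated data. Depth was the library total at which FPKM of genes with 1 exon of at most 300 bases became whole fragments, within 0.05 fragments and rounding, for 87.4% to 91.2% of values (medians at other totals 3.83% to 4.83%), and is known to about 1 percent. Coordinates, and the exon lengths used to estimate fragments, are from GENCODE vM21. Members and lists were chosen with earlier results of these data known. Genes named beside the members were the 3 with the smallest p in each pathway list, the 3 most correlated with each member, Nr2f2, Pgr and Esr1. One gene that this rule names is not reported here. Marker genes, Vps25, Gnas and Adcy5 are named outside this rule, after their values were seen. Alternatives were 0.1 or 1 added before the log2, no filter or one at 1 FPKM, quantile normalization, median-ratio scaling, no trend, the replicate number as a block, and each library left out.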

Additional observations from a re-analysis of the deposited data

Results flagged for a closer look

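Adm was at 8.28 FPKM in Nr2f2 f/f replicate 2, far from the other 3 Nr2f2 f/f libraries, which held 3.81 to 4.36 FPKM. The gap to the nearest library was 0.878 of the range of the group, above Dixon's critical value for 4 libraries. Of 16 groups of 4 libraries looked at in this way, all of member genes, it was the only one past the limit. Chance flags about 1 in 20 groups. Adm was not alone in setting this library apart. It also held the highest control value of Ndrg1 (160 FPKM) and Slc2a1 (36.4 FPKM). The lowest control values of Areg (0.04 FPKM), Lrp2 (4.90 FPKM) and Mme (40.7 FPKM) were there too. Without this library the log2 fold change of Adm was -0.16, against -0.39 with it.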

How the results depend on the processing

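All 6 genes tested kept their direction in the 16 alternative settings. Calca, Calcrl and Ramp2 met the study's threshold in all 16, Ramp3 in 10, and Adm and Ramp1 in 0. The count of members at that threshold was 4 in the 8 settings that kept all libraries and 3 to 4 with 1 library left out. With quantile normalization, 1 member passed the adjusted p, Ramp2, with a log2 fold change of -0.68. With 1 library left out, 0 to 1 members passed it, the log2 fold change of Calcrl was -0.88 to -0.59 and that of Ramp2 -0.68 to -0.50. Over all genes, 375 passed the adjusted p, 42 to 348 with 1 library left out (fewer samples), and 156 of the 375 (41.6%) were higher, against 50.8% with median-ratio scaling and 44.9% with quantile normalization. The titles give both groups numbers 1 to 4, but same-numbered libraries did not deviate together (r of -0.20, -0.17, 0.05 and -0.04). The descriptions number the mice differently, and the 3 pairs that share a number there had r of -0.20, 0.15 and -0.04. Neither numbering was taken to pair the mice. With the replicate block, by the titles' numbers only, 1 gene passed the adjusted p, and the members at the study's threshold were 4. Settings for the ratio to endothelial markers and the list counts with a library left out were chosen after seeing the data. With 4 libraries a group, low genes such as Calcb and Adm2 were not fitted, and Calcr was under the limit of detection.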
